A study of Syringa oblata with 2 samples.

Results

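The chalcone synthase family of *Syringa oblata* leaves was taken as the unigenes whose Swiss-Prot description contained the words chalcone synthase in any case, less those whose best match was rice. Of 73159 unigenes in the deposited table, 5 carried these words, 1 of them was matched to rice and left out, and 4 members remained. The members were TRINITY_DN32109_c0_g3, TRINITY_DN35859_c0_g2 and TRINITY_DN35859_c0_g3, which were described as chalcone synthases, and TRINITY_DN37756_c0_g3, which was described as an NAD(P)H-dependent 6'-deoxychalcone synthase. A unigene is the longest transcript that the assembler built for a gene from the reads alone, without a genome.

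Chalcone synthase (CHS) is a type III polyketide synthase that condenses p-coumaroyl-CoA with malonyl-CoA to naringenin chalcone, and it is the entry enzyme of flavonoid synthesis. Its product feeds flavones, flavonols such as the aglycone of rutin, anthocyanins and proanthocyanidins, and in many plants its transcript level follows light, ultraviolet radiation and stress. The 6'-deoxychalcone synthase of soybean is a different protein, an aldo-keto reductase also called chalcone reductase, which acts together with CHS so that a chalcone with 1 hydroxyl group fewer is made.

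The Z1 group was leaves of trees grown under black nets with 40 to 50% shading, and the Z0 group was leaves of trees under natural light. Each group had several trees and 2 RNA-seq libraries (Z1-1 and Z1-2, Z0-1 and Z0-2), which the labels list as 1 sample per condition and the methods of the study call biological repeats. Which trees went into which library is not given in the sources used here, so a p-value here rests on the spread between repeats that may share trees. The comparison asks which transcripts of the leaf differ between the shaded and the unshaded trees. Values are in TPM, the transcript abundance per length of the unigene and per library total, and the read depth behind them is unknown.

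The CHS unigenes were also targets of quantitative PCR primers in the study. The study reports them as up-regulated in the shaded leaves, by sequencing and by quantitative PCR. In the deposited TPM, TRINITY_DN32109_c0_g3 had the higher mean in Z1, with a log2 difference of 0.67. TRINITY_DN35859_c0_g2 and TRINITY_DN35859_c0_g3 had the lower mean in Z1, with log2 differences of −0.55 and −0.72. None of these differences passed the limma test. Why the directions differ for the DN35859 pair was not tested. The 6 primers are shown because the study lists them for these 3 unigenes. Where they lie in the unigenes, and how they match the other ones, was not tested. They are written 5′ to 3′ in lower case, as listed by the study, and no base is marked.
TRINITY_DN32109_c0_g3 forward: gccgactaccaactcaccaagc
TRINITY_DN32109_c0_g3 reverse: tgttgttctccgccaagtccttg
TRINITY_DN35859_c0_g2 forward: gcagagcaccacaggcgaag
TRINITY_DN35859_c0_g2 reverse: cagaaccacggtctcaactgtcag
TRINITY_DN35859_c0_g3 forward: tggttacggttgaggatgttcgtc
TRINITY_DN35859_c0_g3 reverse: caattcggtggcgttgcagtg
The primers were 20 to 24 nt long with a GC content of 50.0 to 65.0%. The longest run that primers of different unigenes shared on either strand was 6 nt.

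All 4 libraries held leaf transcripts. The 6 unigenes matched to the small subunit of Rubisco, the enzyme that fixes carbon dioxide, summed to 12074 and 14099 TPM in Z1 and to 13513 and 12808 TPM in Z0. Unigenes matched to a carlavirus, a plant RNA virus, held 0.147% and 0.0505% of the TPM in Z1 and 22.8% and 13.9% in Z0. Rice-matched unigenes held 0.244% in Z1-1, 3.36% in Z1-2, and 0.298% and 0.295% in Z0. TPM is a share of the whole library, so a larger carlavirus share lowers the TPM of all other unigenes by construction, and the members are also given with these unigenes taken out. Light, the trees and the carlavirus level follow the same split and cannot be told apart. In whole leaves, fewer cells of a type and less RNA per cell cannot be told apart either.

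The members were spread over 3 Trinity components, a component being a set of transcripts that the assembler joined through shared stretches of sequence. TRINITY_DN32109_c0_g3 was 1685 nt long with 4 transcripts, its best Swiss-Prot match was the CHS of *Perilla frutescens*, and its best Nr match was the CHS of *Osmanthus fragrans*, a plant of the olive family as is *Syringa*. TRINITY_DN35859_c0_g2 was 1112 nt long with 2 transcripts and was also matched to the *Perilla frutescens* enzyme. TRINITY_DN35859_c0_g3 was 676 nt long with 1 transcript and was matched to CHS2 of *Camellia sinensis* in Swiss-Prot and to a *Juglans regia* CHS in Nr. All 3 carried the KEGG entry of CHS.

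The domain column separated the CHS unigenes further. TRINITY_DN32109_c0_g3 and TRINITY_DN35859_c0_g3 were assigned the N-terminal domain of chalcone and stilbene synthases, which holds the cysteine of the active site. TRINITY_DN35859_c0_g2 was assigned the C-terminal domain. The column gave more than 1 domain for only 103 of the 32939 unigenes that had any, so a single entry does not show that the other domain is missing. The DN35859 pair thus held an N-terminal and a C-terminal entry in 1 component, and their lengths summed to 1788 nt. Whether they are pieces of 1 transcript was not tested.

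TRINITY_DN32109_c0_g3 was the most abundant member in every library. It had 463 and 339 TPM in Z1, against 197 and 314 TPM in Z0. Both Z1 libraries were above both Z0 libraries, but Z1-2 and Z0-2 were close. Means were 401 ± 87.9 TPM in Z1 and 256 ± 83.1 TPM in Z0 (SD, n = 2 each), a difference of 0.67 on the log2(TPM + 1) scale (SE 0.33, 95% interval −0.19 to 1.53). This did not pass the limma test (Benjamini-Hochberg adjusted p = 0.252). By TPM it ranked 169 and 221 among all unigenes in Z1 and 322 and 234 in Z0, within the top 0.440% of each library.

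TRINITY_DN35859_c0_g2 stood in the opposite order. It had 44.1 and 74.5 TPM in Z1, against 66.9 and 107 TPM in Z0. The groups overlapped, since Z1-2 was above Z0-1, and the lowest value was Z1-1. The difference was −0.55 on the log2 scale (SE 0.38, 95% interval −1.56 to 0.45) and did not pass (limma, adjusted p = 0.396).

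TRINITY_DN35859_c0_g3 had 30.5 and 48.9 TPM in Z1, against 49.3 and 83.9 TPM in Z0. Both Z1 libraries were below both Z0 libraries, though Z1-2 and Z0-1 were nearly equal. The difference of −0.72 on the log2 scale (SE 0.38, 95% interval −1.73 to 0.29) did not pass (limma, adjusted p = 0.286). In both DN35859 unigenes the second library of a group was the higher one, 1.69 and 1.60 times the first in Z1 and 1.60 and 1.70 times in Z0, taking g2 before g3. TRINITY_DN32109_c0_g3 had this order in Z0 (1.60 times) but not in Z1 (0.732 times).

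TRINITY_DN37756_c0_g3, the 6'-deoxychalcone synthase match, was the member that passed the test. It was nearly undetected in Z1, with 0.06 and 0.02 TPM, against 6.10 and 3.99 TPM in Z0. The groups were far apart relative to the spread within each. It fell by 2.52 on the log2(TPM + 1) scale (SE 0.32, 95% interval −3.36 to −1.67), with a limma adjusted p of 0.0390. The pseudocount of 1 TPM understates the change of such a low unigene. The difference was −2.49 without Z1-2, −2.54 without Z1-1, −2.26 without Z0-1 and −2.77 without Z0-2. The call was lost in each of these fits. They rest on 1 library against 2, so the loss there says little about this unigene itself. The call was also lost at a pseudocount of 0.1 TPM, where the difference was −5.18 with a limma adjusted p of 0.0506. At that pseudocount 553 of all unigenes were called, against 3661 in the main fit.

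The annotation of TRINITY_DN37756_c0_g3 did not place it among the polyketide synthases. The unigene was 1051 nt long with 3 transcripts, and its domain was that of the aldo-keto reductases. Its best Nr match was a putative oxidoreductase of *Morus notabilis*, and its KEGG entry was aldehyde reductase. It was caught by the words in the description, and it carried no chalcone and stilbene synthase domain. Reductases of this large family act on many carbonyl substrates, and the substrate of this one is not given in the sources used here.

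**Figure D1:**
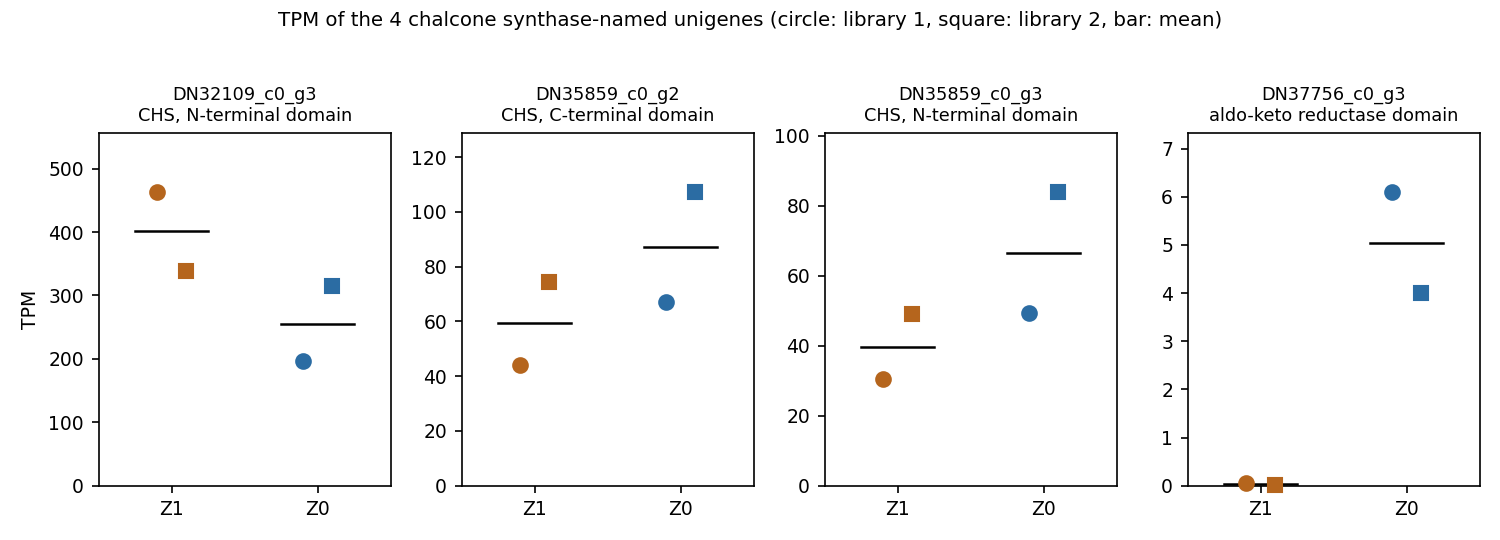
TPM of the 4 members (vertical axes, linear, each from 0) in each library, Z1 on the left and Z0 on the right of each panel, with a circle for the first and a square for the second library and a horizontal line for the mean of 2. TRINITY_DN32109_c0_g3 has 463 and 339 TPM in Z1 and 197 and 314 TPM in Z0, both DN35859 unigenes stand in the opposite order, and TRINITY_DN37756_c0_g3 is at 0.06 and 0.02 TPM in Z1 and 6.10 and 3.99 TPM in Z0.

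With a limma adjusted p under 0.05 and a log2 difference beyond 1, 0 of the 4 members rose and 1 fell. Over all unigenes the same rule called 3.20% higher and 1.80% lower in Z1. By the unadjusted p under 0.05 with the same fold, the counts were again 0 higher and 1 lower, and over all unigenes 16.5% were higher and 7.71% lower. Of the 4 members, 1 had both Z1 libraries above both Z0 libraries and 2 had both below, against 41.5% and 18.2% of all unigenes. A count over so few members says little against these shares.

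The direction of the family depended on the member and, for the sum, on the scaling. The TPM of the 4 members summed to 538 and 463 in Z1, against 319 and 510 in Z0, so Z0-2 lay between the Z1 libraries. The mean log2 of the sum differed by 0.31, within the replicate SD of 0.35, and this was −0.08 after median-ratio scaling, −0.07 after trimmed-mean (TMM) scaling and 0.01 with the carlavirus-matched unigenes taken out. Over all unigenes the median log2 difference was 0.45 on the deposited TPM, and median-ratio scaling lowered it by 0.28 and TMM by 0.27, to 0.18 under each. These scalings also turned the split of calls over all unigenes, which was 2344 higher and 1317 lower as deposited, 1504 higher and 1998 lower after median-ratio scaling, and 1448 higher and 1941 lower after TMM.

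Relative to the median of all unigenes, TRINITY_DN32109_c0_g3 was 0.22 higher as deposited and 0.11 higher after either scaling. TRINITY_DN35859_c0_g2 was at −1.01 relative to that median as deposited and at −1.11 after either scaling. TRINITY_DN35859_c0_g3 was at −1.17 and at −1.27. Only 18357 of the 73159 unigenes had a mean of at least 5 TPM. This median thus mostly reflects low unigenes, whose differences the pseudocount shrinks. Without reference to the median, TRINITY_DN32109_c0_g3 was at 0.28 after median-ratio scaling and at 0.29 after TMM. No CHS unigene changed sign under these scalings. After median-ratio scaling, TRINITY_DN32109_c0_g3 had scaled values of 388 and 307 in Z1 and 243 and 329 in Z0, so its groups overlapped. TRINITY_DN35859_c0_g2 then had 36.9 and 67.4 in Z1 and 82.7 and 112 in Z0, and its groups no longer overlapped. None of the 3 passed the limma test after either scaling.

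With the carlavirus-matched unigenes taken out and the rest brought back to 1 total, TRINITY_DN32109_c0_g3 had a log2 difference of 0.38. Its values were then 464 and 339 in Z1 and 255 and 365 in Z0, so its groups overlapped. Those of TRINITY_DN35859_c0_g2 no longer did, at 44.2 and 74.6 in Z1 and 86.7 and 125 in Z0. TRINITY_DN35859_c0_g2 had −0.84 and TRINITY_DN35859_c0_g3 had −1.01, and these 3 stayed short of the threshold. TRINITY_DN37756_c0_g3 had −2.77 and remained called (limma, adjusted p = 0.0390).

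**Figure D2:**
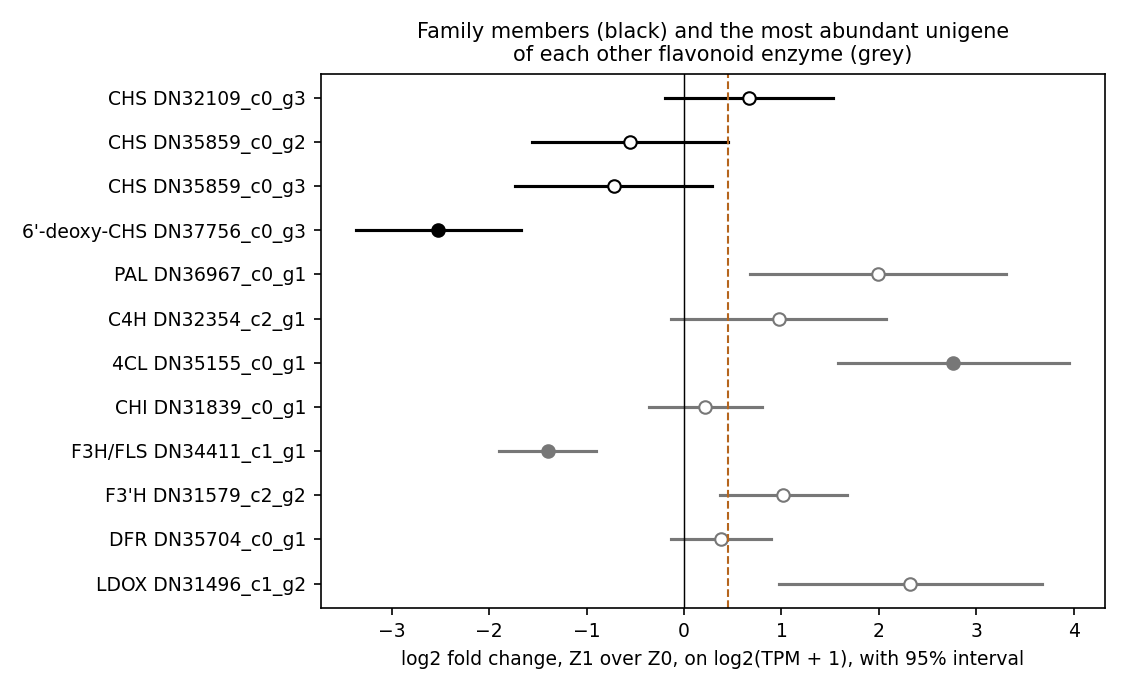
Log2 difference Z1 minus Z0 on the log2(TPM + 1) scale (horizontal axis) with its 95% interval, for the members (black) and the most abundant unigene of each other enzyme list (grey); filled points passed the limma test with the fold threshold, and the dashed line is the median of all unigenes at 0.45. TRINITY_DN32109_c0_g3 is at 0.67, TRINITY_DN35859_c0_g2 at −0.55, TRINITY_DN35859_c0_g3 at −0.72, and TRINITY_DN37756_c0_g3 at −2.52.

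Ratios of CHS unigenes within a library are free of any factor common to that library, the carlavirus share included. TRINITY_DN32109_c0_g3 stood at 10.5 and 4.55 times the level of TRINITY_DN35859_c0_g2 in Z1, against 2.94 and 2.93 times in Z0. The Z0 libraries were nearly the same, while the Z1 libraries differed from each other by more than Z1-2 differed from Z0. On the log2 scale the ratio averaged 2.79 ± 0.853 in Z1 and 1.55 ± 0.00399 in Z0 (SD, n = 2 each). Relative to TRINITY_DN35859_c0_g3 the same unigene stood at 15.2 and 6.93 times in Z1 and at 3.997 and 3.75 times in Z0. Both Z1 libraries were above both Z0 libraries in both ratios. For the ratio to TRINITY_DN35859_c0_g3 this follows from the values of the 2 unigenes, each of which separated the groups, in opposite orders. A two-sided exact permutation test gave p = 0.33 for each of these 2 log2 ratios, also after adjustment over both. This is the smallest p that 2 libraries against 2 allow, so the test cannot decide whether the ratios differ.

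Given as a share, TRINITY_DN32109_c0_g3 made up 86.1% and 73.3% of the TPM of the 3 CHS unigenes in Z1, against 62.9% and 62.2% in Z0. TRINITY_DN35859_c0_g2 made up 8.20% and 16.1% in Z1 and 21.4% and 21.2% in Z0. TRINITY_DN35859_c0_g3 made up 5.67% and 10.6% in Z1 and 15.7% and 16.6% in Z0. The share of the DN32109 unigene was thus higher in each Z1 library, and furthest so in Z1-1. If the DN35859 pair is counted as 1 transcript, at the mean of its levels weighted by length, the share of TRINITY_DN32109_c0_g3 was 92.2% and 83.9% in Z1 and 76.6% and 76.2% in Z0. The groups then still did not overlap.

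The DN35859 pair moved together. TRINITY_DN35859_c0_g3 stood at 0.691 and 0.656 times the level of TRINITY_DN35859_c0_g2 in Z1, against 0.736 and 0.782 times in Z0. The ratio differed little between libraries in which each unigene alone varied by more than 2-fold. Among 8351 unigenes with a Swiss-Prot name and a mean of at least 10 TPM, TRINITY_DN35859_c0_g3 was number 7 by likeness of pattern to TRINITY_DN35859_c0_g2, at a Euclidean distance of 0.185 between centred log2(TPM + 1) values over the 4 libraries. TRINITY_DN32109_c0_g3 was number 5811, at a distance of 1.49. These distances describe 4 libraries and carry no test.

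**Figure D3:**
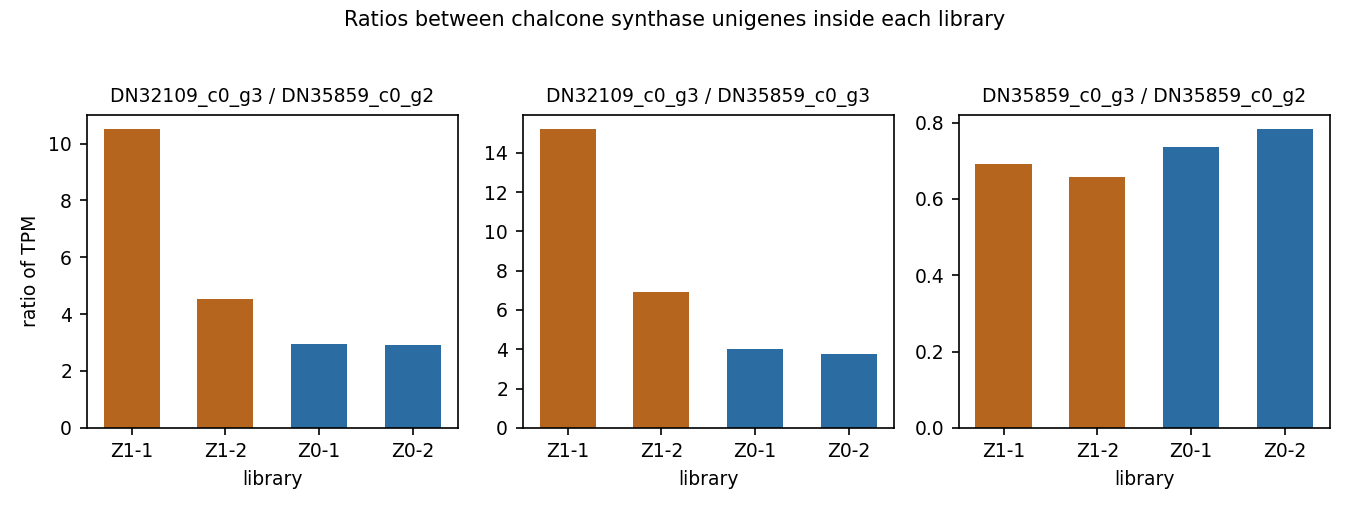
Ratios of the TPM of CHS unigenes within each library (vertical axes, linear from 0), Z1 libraries on the left and Z0 libraries on the right, 1 bar per library. TRINITY_DN32109_c0_g3 stands at 10.5 and 4.55 times TRINITY_DN35859_c0_g2 in Z1 and at 2.94 and 2.93 times in Z0, while the ratio within the DN35859 pair stays between 0.656 and 0.782.

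The Trinity components held more than CHS. Component DN32109_c0 had 6 unigenes, among them a pair matched to CSN1, a subunit of the COP9 signalosome that represses light responses in dark-grown *Arabidopsis*, and 1 matched to the rust resistance kinase LRK10 of wheat. TRINITY_DN32109_c0_g4 (CSN1) had 27.2 and 25.1 TPM in Z1 and 22.6 and 33.4 TPM in Z0, so its groups overlapped. TRINITY_DN32109_c0_g5 (CSN1) had 36.2 and 29.4 TPM in Z1 and 15.5 and 18.1 TPM in Z0, with a limma adjusted p of 0.0853. TRINITY_DN32109_c0_g2 (LRK10) had 34.5 and 24.0 TPM in Z1 and 3.96 and 8.64 TPM in Z0, with a limma adjusted p of 0.0601. None of these neighbours passed. The CHS unigene held 78.7% and 79.2% of the component's TPM in Z1 and 81.4% and 83.7% in Z0.

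In component DN35859_c0, of 5 unigenes, the CHS pair and its neighbours stood in opposite orders. The largest neighbour was TRINITY_DN35859_c0_g1, matched to the uncharacterized bacterial protein YpgQ with an HD domain, with 238 and 128 TPM in Z1 and 44.9 and 103 TPM in Z0 (limma, adjusted p = 0.179). The CHS pair held 22.5% and 47.4% of the component's TPM in Z1, against 71.6% and 63.9% in Z0. Summed over the component, the log2 difference was 0.41, the reverse of both CHS unigenes, and it did not pass (limma, adjusted p = 0.498). How reads were shared among transcripts of a component was not tested.

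Component DN37756_c0 had 4 unigenes, 3 of them with matches or domains of retrotransposon proteins. TRINITY_DN37756_c0_g2, matched to the Ty3-G polyprotein, had 15.8 and 9.30 TPM in Z1 and 0.65 and 4.50 TPM in Z0 (limma, adjusted p = 0.123). TRINITY_DN37756_c0_g3 held 0.288% and 0.155% of the component's TPM in Z1 and 70.8% and 32.9% in Z0. Summed over the component the log2 difference was 0.63, the reverse of the member, with a limma adjusted p of 0.297. TRINITY_DN37756_c0_g4 was low throughout, with 0.83 and 0.32 TPM in Z1 and 0.87 and 1.29 TPM in Z0, and TRINITY_DN37756_c0_g1 had 4.16 and 3.25 TPM in Z1 and 1.0 and 2.35 TPM in Z0. The neighbours thus stood in both orders, and none of them passed.

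**Figure D4:**
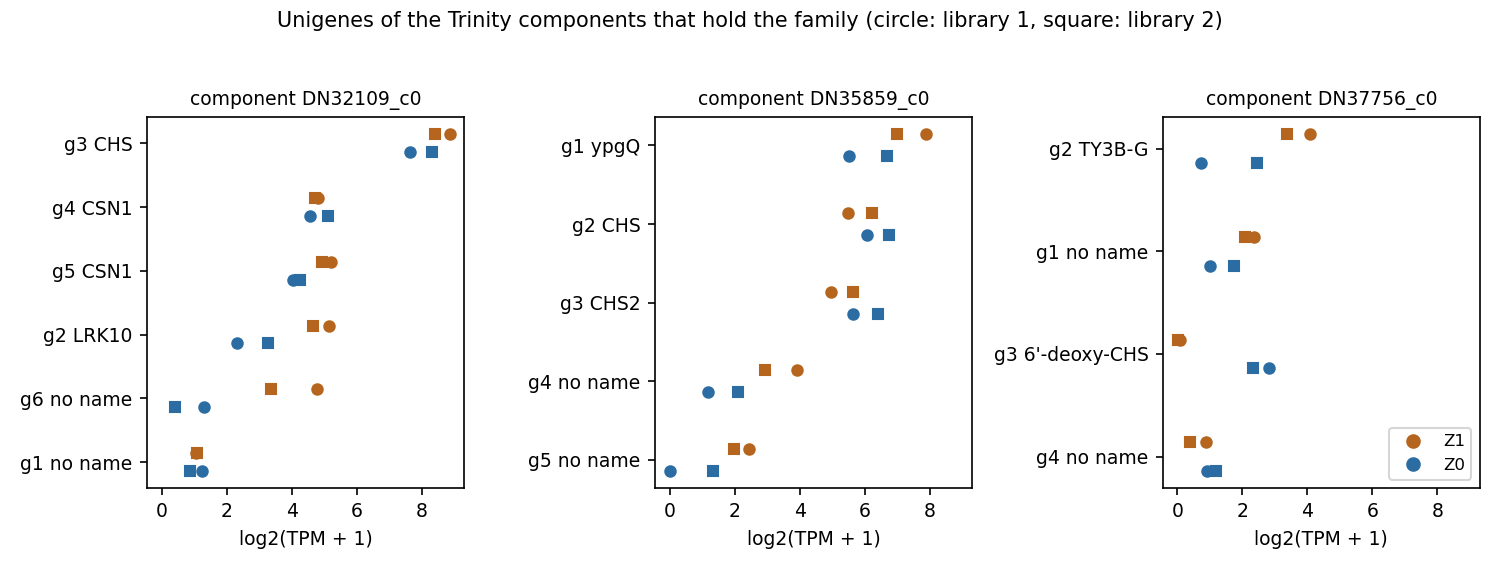
Level of every unigene in the 3 Trinity components that hold members, as log2(TPM + 1) on the horizontal axis, with Z1 points above Z0 points and a circle for the first and a square for the second library. In component DN35859_c0 the YpgQ-matched unigene has 238 and 128 TPM in Z1 and 44.9 and 103 TPM in Z0, opposite in order to the CHS pair beside it.

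Other unigenes with a chalcone and stilbene synthase domain or a type III polyketide synthase name were few and low. A pair was matched to type III polyketide synthase B (PKSB), which in *Arabidopsis* makes precursors of the pollen wall. TRINITY_DN1077_c0_g1 (PKSB, 219 nt) had 3.10 and 4.83 TPM in Z1 and 1.10 and 0 TPM in Z0, with a limma adjusted p of 0.0972. TRINITY_DN1870_c0_g1 (PKSB, 325 nt) had 1.15 and 1.77 TPM in Z1 and 0 and 0.17 TPM in Z0, with a limma adjusted p of 0.166. Both stood above Z0 in each Z1 library, as 41.5% of all unigenes did. Both also carried the KEGG entry of CHS, so an enzyme number alone would have counted them in the family.

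The other 3 were matched to 3-ketoacyl-CoA synthases, which elongate fatty acids for waxes and membrane lipids and share the condensing fold. TRINITY_DN10173_c0_g2 (KCS11) had 0.15 and 0.33 TPM in Z1 and 3.31 and 2.42 TPM in Z0, a log2 difference of −1.63 with a limma adjusted p of 0.0611. The remaining pair, matched to KCS20 and KCS6, had its best Nr matches in rice and was detected mainly in Z1-2, at 5.56 and 6.89 TPM. The CHS unigene left out for its rice match, TRINITY_DN12510_c0_g1 (913 nt), had 0 and 3.14 TPM in Z1 and 0 and 0.03 TPM in Z0. Its level stood apart in Z1-2, the library with the highest rice-matched share, whose part in these values was not tested. None of these 6 passed the limma test.

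The enzymes around CHS were taken by their Swiss-Prot descriptions, as 22 unigenes in 9 lists without rice-matched rows. Of these, 2 rose and 1 fell, where over all unigenes 3.20% rose and 1.80% fell. Both Z1 libraries were above both Z0 libraries in 13 and below in 2, where over all unigenes 41.5% were above and 18.2% below. The median log2 difference was 0.68, against 0.45 over all unigenes. The latter mostly reflects low unigenes, whose differences the pseudocount shrinks, so the 2 medians are not like for like. After median-ratio scaling 1 rose and 1 fell, and after TMM 0 rose and 1 fell. Without Z1-2, without Z0-1 or without Z0-2 none passed, but 0 of all unigenes passed in these fits. Without Z1-1, 2 rose and 0 fell, beside 8233 that rose and 145 that fell over all unigenes.

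The enzymes that make the substrate of CHS come first in the pathway. Phenylalanine ammonia-lyase (PAL, TRINITY_DN36967_c0_g1), which starts the phenylpropanoid pathway, had 266 and 135 TPM in Z1 and 33.2 and 66.5 TPM in Z0, a log2 difference of 1.99 with a limma adjusted p of 0.0854. Cinnamate 4-hydroxylase (CYP73A4, TRINITY_DN32354_c2_g1) had 133 and 72.9 TPM in Z1 and 38.5 and 64.4 TPM in Z0 (limma, adjusted p = 0.209). 4CL1 (TRINITY_DN35155_c0_g1), a ligase that gives p-coumaroyl-CoA, had 77.7 and 62.8 TPM in Z1 and 5.94 and 14.7 TPM in Z0. It rose by 2.76 on the log2 scale (SE 0.45, limma adjusted p = 0.0483). On the deposited TPM both Z1 libraries were above both Z0 libraries in all 3 enzymes, as in 41.5% of all unigenes. The log2 difference of CYP73A4 was 0.97 as deposited and 0.59 after median-ratio scaling, and whether its groups then overlapped was not tested. After TMM scaling the log2 difference of 4CL1 was 2.40 with a limma adjusted p of 0.0525. With the carlavirus-matched unigenes taken out it was 2.50 with a limma adjusted p of 0.0508. The call was thus lost in both, while after median-ratio scaling it was kept (limma, adjusted p = 0.0483).

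Chalcone isomerase closes the ring of the CHS product. CHI3 (TRINITY_DN31839_c0_g1) was described as a probable isomerase but carried no KEGG entry or enzyme number. It had 146 and 119 TPM in Z1 and 105 and 122 TPM in Z0, so its groups overlapped. Its log2 difference of 0.22 turned to −0.16 under median-ratio and TMM scaling. CHI (TRINITY_DN31297_c1_g2), of the same list, carried the KEGG entry and enzyme number of chalcone isomerase and was lower. It had 19.9 and 16.7 TPM in Z1 and 14.2 and 17.4 TPM in Z0, so its groups overlapped too. The unigene FL (TRINITY_DN34411_c1_g1), described as both flavonol synthase and flavanone 3-hydroxylase, had 24.1 and 24.8 TPM in Z1 and 65.9 and 66.3 TPM in Z0. It fell by 1.40 on the log2 scale (limma, adjusted p = 0.0405), and the groups were far apart relative to their spread. Flavonol synthase makes flavonols from dihydroflavonols. The other unigene of that list, TRINITY_DN35322_c1_g2, was low, with 2.14 and 1.26 TPM in Z1 and 1.17 and 1.23 TPM in Z0 (log2 difference 0.28). The study names other unigenes as flavonol synthases (DLO2, DMR6 and SGR1) and reports them as up-regulated in Z1. Their values are not given here, so FL alone does not describe the step.

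Flavonoid 3'-hydroxylase adds the hydroxyl group that tells quercetin from kaempferol. CYP75B2 (TRINITY_DN31579_c2_g2), the most abundant of this list, had 128 and 115 TPM in Z1 and 50.4 and 69.7 TPM in Z0 (limma, adjusted p = 0.0815). CYP75B1 (TRINITY_DN31579_c2_g5), of the same component, had 3.02 and 3.72 TPM in Z1 and was listed at 0 in both Z0 libraries, and it rose (limma, adjusted p = 0.0451). It stayed short of the threshold after median-ratio scaling (limma, adjusted p = 0.0534) and TMM (limma, adjusted p = 0.0522). With the carlavirus-matched unigenes taken out, CYP75B1 was narrowly called (limma, adjusted p = 0.0492). Toward anthocyanins, the most abundant dihydroflavonol 4-reductase match (TRINITY_DN35704_c0_g1) had a log2 difference of 0.38, which was 0.00 under TMM, but its domain was CIA30 and its best Nr match an uncharacterized protein. Those whose best Nr matches were dihydroflavonol reductases stood in both orders. DFRA (TRINITY_DN27756_c0_g1) had 38.9 and 7.98 TPM in Z1 and 0.10 and 0.09 TPM in Z0, a log2 difference of 4.11 with a limma adjusted p of 0.0550. DFR (TRINITY_DN30756_c0_g2) had 6.78 and 12.6 TPM in Z1 and 28.5 and 39.2 TPM in Z0, a log2 difference of −1.74 with a limma adjusted p of 0.0659. Neither passed, and this pair was picked with its values in view. ANT17 (TRINITY_DN31496_c1_g2), a leucoanthocyanidin dioxygenase, had 148 and 73.4 TPM in Z1 and 13.8 and 29.1 TPM in Z0 (limma, adjusted p = 0.0716).

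TRINITY_DN32109_c0_g3 had a higher group mean than the most abundant unigene of every other enzyme list in both conditions, at 401 TPM in Z1 and 256 TPM in Z0. The order of the others differed between the conditions. In Z1 it ran from PAL at 200.6 TPM, CHI3 at 133 TPM, CYP75B2 at 121 TPM, ANT17 at 111 TPM and CYP73A4 at 103 TPM to the CIA30-domain unigene at 78.4 TPM, 4CL1 at 70.2 TPM and FL at 24.4 TPM. In Z0 it ran from CHI3 at 113 TPM, FL at 66.1 TPM, the CIA30-domain unigene at 60.05 TPM and CYP75B2 at 60.04 TPM to CYP73A4 at 51.4 TPM, PAL at 49.8 TPM, ANT17 at 21.5 TPM and 4CL1 at 10.3 TPM. PAL was thus first of these in Z1, where its libraries overlapped those of CHI3, and below CHI3 in both Z0 libraries. TRINITY_DN35859_c0_g2 averaged 59.3 TPM in Z1 and 87.1 TPM in Z0, and TRINITY_DN35859_c0_g3 averaged 39.7 TPM in Z1 and 66.6 TPM in Z0.

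The 5 unigenes whose pattern over the 4 libraries was nearest to that of TRINITY_DN32109_c0_g3 were matched to TIM23-1, the B2 protein, a BI1-like protein, MKK2 and DRM2. TIM23-1 is a subunit of the mitochondrial import channel, at a distance of 0.0371, and the B2 protein was at 0.0417. The BI1-like protein was at 0.0620, the kinase MKK2 at 0.0780 and the DNA methyltransferase DRM2 at 0.0789. The B2 protein unigene, TRINITY_DN30584_c2_g1, had 249 and 176 TPM in Z1 and 105 and 166 TPM in Z0. No enzyme of the flavonoid lists was among these 5, and with 4 libraries many unigenes lie close by any such measure.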

How the data were processed

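Leaf mRNA was sequenced in 4 libraries, 2 for Z1 and 2 for Z0. The labels list 1 sample per condition and call the molecule genomic DNA, while their protocol describes poly(A) RNA. Each condition has 2 columns, matched to it by name, and 0 value columns were left unmapped. The deposited TPM were made by the authors with Salmon on a Trinity assembly (cutadapt and FastQC are named in the submitters' processing notes, as is edgeR; versions not given in the sources used here). Unigene length in nucleotides was deposited beside these values. TPM keeps no depth, so no counting interval is given, and each column summed to 999297 to 999450 TPM.

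TPM were tested as log2(TPM + 1) with limma 3.58.1 in R 4.3.3 (trended prior, Z1 minus Z0), fitted on all 73159 unigenes, all of which reached 1 TPM in at least 1 library, with Benjamini-Hochberg adjustment over all of them. A unigene was called at an adjusted p under 0.05 and a log2 difference beyond 1. A count model was not used because TPM are not counts. The procedure was tested on simulated data in which all unigenes had the same spread. Changes were placed only in more abundant unigenes, so the simulation does not cover calls of low ones such as TRINITY_DN37756_c0_g3. Tables were read with pandas 2.3.3, and figures matplotlib 3.10.9.

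Named unigenes were all matches to the family text, all others with a chalcone and stilbene synthase domain or type III polyketide synthase name, the most abundant member of each enzyme list, and the 5 nearest in pattern to the most abundant CHS unigene. CHI, CYP75B1, DFRA, DFR, TRINITY_DN35322_c1_g2 and the component neighbours fall outside this rule and were picked with their values in view. The members and lists were chosen with earlier results of these data known. Alternatives were the pseudocount, the filter, median-ratio and TMM scaling, the replicate block, leaving out each library, leaving out rice- or carlavirus-matched unigenes, and sums per component. Primer sequences came from the study's supplementary list.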

Additional observations from a re-analysis of the deposited data

How the results depend on the processing

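The count of members called was 1, and it was 0 at pseudocounts of 0.1 and 5 TPM, with a filter of 5 TPM in 1 library, per component, and in every fit that left out 1 library (range 0 to 0). The count of pathway enzymes called was 3, and it was 0 at either pseudocount and per component, 8 with the filter, 1 after TMM, 7 without rice-matched unigenes, 11 by the unadjusted p, and 0 to 2 with 1 library left out. Per component, both DN35859 unigenes had a log2 difference of 0.41 and TRINITY_DN37756_c0_g3 had 0.63, in place of negative ones, because the component sums add their neighbours. For TRINITY_DN37756_c0_g3 the difference was −5.18 and −0.99 at pseudocounts of 0.1 and 5 TPM and −2.52 with the filter, none of them called, and −2.77 to −2.26 with 1 library left out. The log2 difference of the summed TPM was 0.31, against −0.08 after median-ratio scaling, −0.07 after TMM, 0.01 without carlavirus-matched unigenes, 0.61 per component, 0.47 with the length-weighted mean of the DN35859 pair (chosen after seeing the data), and −0.03 to 0.64 with 1 library left out. With 1 library left out, TRINITY_DN32109_c0_g3 ranged over 0.33 to 1.01, TRINITY_DN35859_c0_g2 over −0.93 to −0.18 and TRINITY_DN35859_c0_g3 over −1.10 to −0.34. In those fits the lone library is assumed to vary like the other group.

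Over all unigenes, 3661 were called, against 553 and 0 at pseudocounts of 0.1 and 5 TPM, 8301 without rice-matched unigenes, 5 per component, 8378 without Z1-1 and 0 without any 1 of the others. With the filter of 5 TPM in 1 library 5449 were called over all unigenes, and after TMM 3389. By the unadjusted p under 0.05 with the same fold, 12072 were higher and 5642 lower. The counts of members and of pathway enzymes are to be read beside these totals. The cause of the differences between settings was not tested. Same-numbered libraries did not deviate together (correlation −0.19 over 18357 unigenes). This rests on 1 difference between libraries per group, so it cannot show whether the replicate numbers pair them. With the replicate block 1 member was called, as without it, and 3999 unigenes in all, and with a crossed block, chosen after seeing the data, 1 and 3730. With unknown depth and 2 libraries a group, the intervals of the CHS unigenes allow no change and more than 2-fold.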

Other observations

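TRINITY_DN32109_c0_g6, an unnamed unigene of 252 nt in the component of the most abundant CHS unigene, had 26.3 and 9.25 TPM in Z1 and 1.46 and 0.34 TPM in Z0, with a limma adjusted p of 0.0565.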
